A study of Rattus norvegicus with 8 samples.

Results

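Tight junctions seal the space between neighbouring epithelial cells, and 10 genes that build them were followed here in rat kidney: 8 claudins (Cldn1, Cldn2, Cldn3, Cldn4, Cldn7, Cldn8, Cldn16 and Cldn19), occludin (Ocln) and zonula occludens 1 (Tjp1). They were taken as every probe set whose platform annotation gives exactly 1 of these symbols and no other, which found 14 probe sets for 10 of the 14217 genes on the array. Cldn1 has 3 probe sets, Ocln and Tjp1 have 2 each, and the other genes have 1.

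RNA of whole left kidneys from male Wistar rats, labelled as 8 weeks of age, was measured on an Affymetrix whole-genome rat array, with 1 rat per array. The 4 HP rats were fed a high-phosphorus diet with 1.2% phosphorus for 24 days, and the 4 control rats were fed the AIN-93G diet with 0.3% phosphorus for the same time. All rats had eaten the control diet before that. The HP diet carried its extra phosphorus as KH2PO4 and so also added potassium, and the effects of phosphorus and potassium cannot be told apart. The authors had chosen the 4 rats of each group as average ones, which means that the arrays show the spread of picked animals.

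Claudins are membrane proteins that join across the gap between cells and set which ions pass it. Each nephron segment has its own set: Cldn2 makes a pore for sodium and water in the proximal tubule, Cldn16 and Cldn19 carry calcium and magnesium through the thick ascending limb, and Cldn4, Cldn7 and Cldn8 belong to the distal tubule and collecting duct. Ocln is a further membrane protein of the junction, and Tjp1 is the scaffold below the membrane that ties claudins to the actin cytoskeleton.

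The values deposited for each probe set are logarithms, read as log2 since no base was stated. They were made with the distribution free weighted method (DFW), a summary that shrinks each probe set according to how much it varies. The 31042 probe sets tested had a median SD within groups of 2.22e-06 and a median absolute difference of 1.53e-06, so a difference in these values is not a log2 fold change. Each difference is therefore also given as a standardized difference, which is HP minus control divided by the pooled SD within groups. Its median over all probe sets was -0.21, with quartiles of -0.92 and 0.59.

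Cldn4 and Cldn7 rose on the HP diet, and none of the 14 probe sets of these 10 genes passed a test for a lower level. By limma, a linear model with the spread moderated across probe sets, with Benjamini-Hochberg adjustment over all probe sets, 2 of the 14 probe sets were higher on the HP diet and 0 were lower, where 2.95% of the 31042 probe sets were higher, 1.13% were lower and 4.08% changed in either direction. At an unadjusted p under 0.05, 4 of the 14 probe sets passed, all higher (those of Cldn4 and Cldn7, and 1 each of Cldn1 and Tjp1), where 19.0% of all probe sets did. Rank products, the test of the study's methods, called 4 probe sets higher (Cldn1, Cldn4, Cldn7 and Cldn8) and 0 lower, where 3.4% of 31099 probe sets were higher and 2.31% were lower. In 3 probe sets (Cldn1, Cldn4 and Cldn7) all HP arrays were above all control arrays, as in 7.09% of all probe sets, and in 0 were all HP arrays below, as in 5.81% of all. The whole kidney was measured, so more cells that make a transcript and more of it per cell cannot be told apart.

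**Figure D1:**
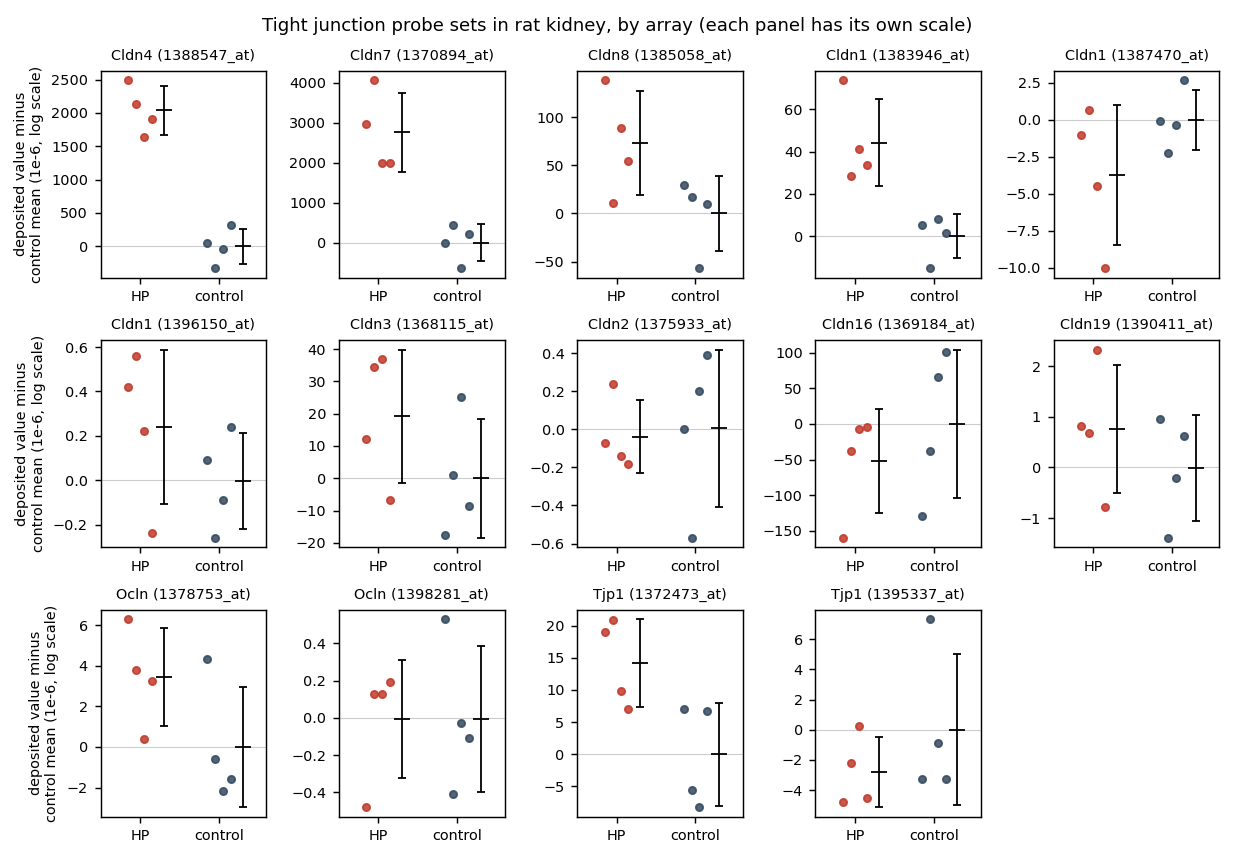
Values of the 14 probe sets on each array, as the deposited value minus the control mean in millionths of a log unit (vertical axis, own scale in each panel), with HP arrays (red) left of control arrays (blue) and the mean with its SD (bars, n = 4 each). In the panels of Cldn4, Cldn7 and 1 Cldn1 probe set (1383946_at) all 4 red points lie above all 4 blue points, and in the other 11 panels the diets overlap.

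Among the claudins of the distal tubule and collecting duct, Cldn4 had the largest standardized difference and Cldn7 the largest difference in deposited units. In mouse collecting duct cells, Cldn4 and Cldn8 together form a route for chloride between cells. The Cldn4 probe set (1388547_at) read 7.513369, 7.513002, 7.512511 and 7.512778 on the HP arrays, against 7.510921, 7.510548, 7.510841 and 7.511196 on the control arrays. Every HP array was higher than every control array, and the gap between the groups was wider than the range within either. The HP mean was 7.512915 ± 0.000363 and the control mean 7.510877 ± 0.000266 (SD, n = 4 each), a difference of 0.00204 (SE 0.000225). That is a standardized difference of 6.40 (95% interval 4.81 to 7.98), with an adjusted p of 0.00751 by limma and an FDR of 2.7e-05 by rank products. Its absolute moderated t lay at percentile 99.5 of all probe sets. Leaving out each array in turn kept the adjusted p between 0.0146 and 0.0321.

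Cldn7 is found on the sides of distal tubule and collecting duct cells as well as at their junctions, and mice without it lose salt in the urine. Its probe set (1370894_at) read 8.306184, 8.307277, 8.305200 and 8.305196 on the HP arrays, against 8.303191, 8.303648, 8.302564 and 8.303427 on the control arrays. The groups did not overlap, and HP replicate 2 was the highest of the 8 arrays. The difference was 0.00276 (SE 0.000548), a standardized difference of 3.56 (1.97 to 5.14), with an adjusted p of 0.0384 by limma and an FDR of 1.56e-05 by rank products. The limma call was lost without HP replicate 1 (adjusted p 0.103), 3 (0.0514) or 4 (0.0535) and without control replicate 1 (0.0935), 2 (0.0791), 3 (0.101) or 4 (0.0809), and it was kept (0.0443) without HP replicate 2. Rank products kept Cldn7 in each of these settings, in which its standardized difference ran from 3.19 to 4.54. That test orders differences in deposited units, where Cldn7 had a large one. With probe sets divided by their SD within groups, the rank products FDR was 0.0377 for Cldn7 and 0.000183 for Cldn4. Leaving out 1 array also cut the limma calls over all probe sets, from 915 higher to between 339 and 672.

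**Figure D2:**
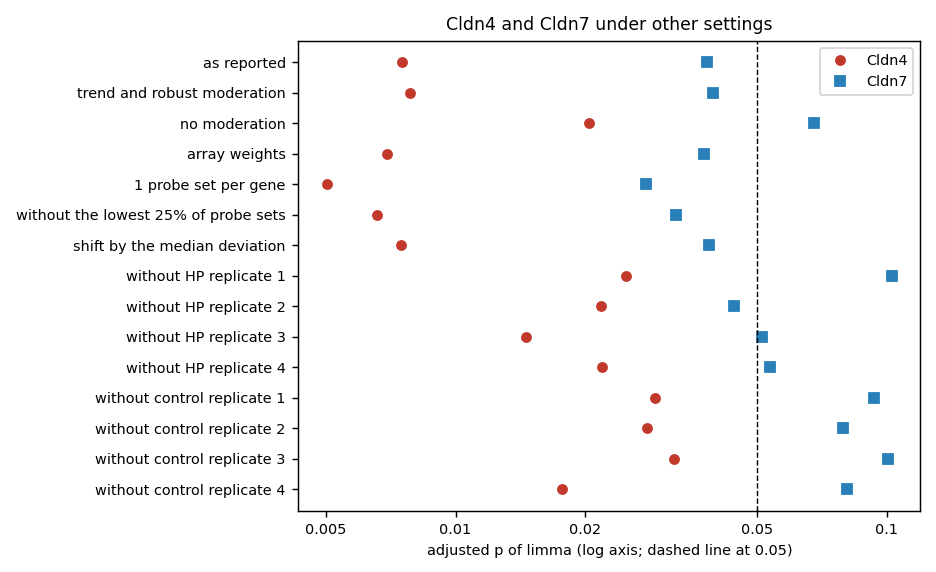
Adjusted p of limma on a log axis for Cldn4 (red circles) and Cldn7 (blue squares), HP against control, as reported and under 14 other settings, with a dashed line at the threshold of 0.05. Every Cldn4 point drawn lies left of the line, and Cldn7 crosses it without moderation and in 7 of the 8 settings without 1 array. Not drawn are median centring (Cldn4 2.7e-08, Cldn7 2.17e-05), quantile normalization (0.00185 and 0.0148) and the replicate block, where both cross the line (0.0571 and 0.0697).

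Cldn8, which recruits Cldn4 to the junction in mouse collecting duct cells, differed less. Its probe set (1385058_at) read 10.319461, 10.319333, 10.319411 and 10.319376 on the HP arrays, against 10.319352, 10.319339, 10.319265 and 10.319332 on the control arrays. HP replicate 2 lay below 2 control arrays, so the groups overlapped. The difference was 7.31e-05 (SE 3.33e-05), a standardized difference of 1.55 with an interval (-0.03 to 3.14) that includes 0, and the adjusted p was 0.273 by limma. Rank products gave an FDR of 0.0471, which went past the threshold without HP replicate 1 (0.209), 3 (0.182) or 4 (0.15) and without control replicate 3 (0.112) or 4 (0.0535).

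Of the 16 collecting duct and distal tubule markers measured, 1 was higher by limma (Scnn1b, the beta subunit of the epithelial sodium channel, standardized difference 3.53, adjusted p 0.0442) and 0 were lower (4 at an unadjusted p under 0.05), with a median of -0.40. Rank products called 0 higher and 1 lower. Their summed level ran from 139.04506 to 139.04529 on the HP arrays and from 139.04506 to 139.0455 on the control arrays, and overlapped. A summed level, here and below, adds deposited values of 1 probe set per gene. Probe sets differ widely in spread, so a sum mostly follows those that vary most. It is not a measure of the amount of a cell type. Tubular injury markers rose beside Cldn4 and Cldn7. Of 15 measured, 9 were higher and 0 lower, led by Spp1 (9.42, adjusted p 0.00378), Vim (7.50, 0.00583) and Havcr1 (7.41, 0.00603), and their summed level ran from 128.83272 to 129.09936 on the HP arrays against 128.10071 to 128.20587 on the control arrays. Macrophage markers (9 of 12 higher, 0 lower; 95.8791 to 95.89114 on HP against 95.86394 to 95.86666 on control arrays) and fibroblast markers (7 of 10 higher, 0 lower; 87.26671 to 87.27206 against 87.24852 to 87.25188) moved the same way. In these 3 lists 0 genes were lower by rank products or at an unadjusted p under 0.05. Beside each marker list stand the shares over all 14217 genes, counted by the probe set of highest mean. By limma 4.58% of them were higher and 1.23% lower, and by rank products 5.31% and 2.33%. The part of these cells in the claudin differences was not tested.

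Cldn1 and Cldn3 are claudins that tighten the barrier. Cldn1 is known in the kidney from the parietal epithelial cells that line Bowman's capsule. Its brightest probe set (1383946_at, highest mean over all arrays) read 7.246088, 7.246042, 7.246055 and 7.246048 on the HP arrays, against 7.246019, 7.245999, 7.246022 and 7.246015 on the control arrays. The groups did not overlap, and HP replicate 1 was the highest. The difference was 4.43e-05 (SE 1.15e-05), a standardized difference of 2.73 (1.15 to 4.32), which was 0.41 (adjusted p 0.541) with each array centred on its median and turned to -2.18 with quantile normalization. The median over all probe sets was -0.941 with the centring and -0.707 with quantile normalization. Limma gave an adjusted p of 0.0803 (0.0712 to 0.164 without 1 array), which did not pass. Rank products gave an FDR of 0.0299, which went past the threshold without HP replicate 1 (0.11), 2 (0.0766), 3 (0.09) or 4 (0.0854).

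The other Cldn1 probe sets did not share this pattern. On 1387470_at the arrays overlapped, with a standardized difference of -1.02 (-2.61 to 0.58) and an adjusted p of 0.484, and on 1396150_at it was 0.84 (-1.86 to 3.54) with an adjusted p of 0.769 and turned with median centring (-0.92) and quantile normalization (-0.71). Of the 6 parietal epithelial cell markers 2 were higher by limma (Cd24, 7.15, adjusted p 0.00627, and Cd44, 6.89, adjusted p 0.00666), and both are also made by injured tubules or white blood cells. The other 4 did not pass limma, among them Pax2 (-0.72, adjusted p 0.64) and Pax8 (1.04, 0.47), transcription factors that define these cells among others. Of the 6 genes 5 had a difference above 0, and rank products called 3 higher and 0 lower. Of their 9 probe sets 3 were higher by limma and 0 lower. The summed level of the 6 ran from 55.1225 to 55.12336 on the HP arrays, against 55.12057 to 55.12088 on the control arrays. Its part in the Cldn1 values was not tested.

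Cldn3 (1368115_at) read 8.336982, 8.337004, 8.337006 and 8.336963 on the HP arrays, against 8.336952, 8.336970, 8.336995 and 8.336961 on the control arrays. The groups overlapped, the standardized difference was 0.98 (-0.60 to 2.57) and turned to -0.34 with median centring, and the adjusted p was 0.498. Cldn3 is the protein-coding neighbour of Cldn4 on rat chromosome 12 in RefSeq, and Cldn1 is that of Cldn16 on chromosome 11. Of these neighbours Cldn4 passed limma, and Cldn3, Cldn1 and Cldn16 did not.

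The 250 bases before the annotated start of Cldn7 and of Cldn1 are shown because these are the genes with every HP array above every control array for which the RefSeq promoter table (build GRCr8) has an entry. The table holds 8 of the 10 genes, and Cldn2 and Cldn4 are not among them. Capitals mark matches on either strand to the motifs searched, which were the Snail-type E-box (CAGGTG, read on the other strand as CACCTG), the GC box (GGGCGG, read on the other strand as CCGCCC), the grainyhead-like motif (AACNGGTT, read on the other strand as AACCNGTT), the AP-1 motif (TGANTCA) and the TATA box (TATAAA). The marked matches do not overlap. Cldn7 lies at chr10:55188420-55188669 and Cldn1 at chr11:87926126-87926375, both on the plus strand.
Cldn7: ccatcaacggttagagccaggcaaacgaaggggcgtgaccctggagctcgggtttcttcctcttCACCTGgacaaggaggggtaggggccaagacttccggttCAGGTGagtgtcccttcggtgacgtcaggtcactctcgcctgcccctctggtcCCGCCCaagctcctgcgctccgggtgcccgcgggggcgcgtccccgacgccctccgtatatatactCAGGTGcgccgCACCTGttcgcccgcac
Cldn1: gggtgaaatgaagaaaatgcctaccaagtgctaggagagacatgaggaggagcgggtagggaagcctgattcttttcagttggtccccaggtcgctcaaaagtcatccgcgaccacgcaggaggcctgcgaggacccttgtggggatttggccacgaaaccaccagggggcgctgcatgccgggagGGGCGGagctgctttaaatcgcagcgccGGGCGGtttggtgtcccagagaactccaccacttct
Cldn7 held 4 E-boxes, at 186 to 181, 147 to 142, 28 to 23 and 17 to 12 bases before the start, and 1 GC box at 94 to 89. Of 33469 promoters of this length, 15.9% held at least 1 such E-box and 0.0299% held 4 or more. Cldn1 held no E-box and 2 GC boxes, at 64 to 59 and 36 to 31 bases before the start, and 30.5% of promoters held at least 1 GC box. Of the 6 other promoters, Ocln held 2 E-boxes, Cldn3 held 1 E-box and 1 GC box, Cldn19 held 3 GC boxes, and Tjp1 held 1 grainyhead-like motif, which 1.76% of promoters have. Cldn8 and Cldn16 held none of these letters, and AP-1 (6.34% of promoters) and TATA box (12.9%) motifs were in 0 of the 8. Only the letters TATAAA were searched, so other spellings of a TATA box were not counted. A match is a run of letters and not a shown binding site.

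The claudins of the thick ascending limb and the proximal tubule did not pass either test. Mutations of CLDN16 or CLDN19 in humans cause loss of magnesium and calcium in the urine with calcium deposits in the kidney. The Cldn16 probe set (1369184_at) read 7.998816, 7.998938, 7.998969 and 7.998972 on the HP arrays, against 7.998847, 7.998939, 7.999043 and 7.999078 on the control arrays. The groups overlapped, and the spread within the control group (SD 0.000105) was wider than the difference of -5.25e-05 (SE 6.39e-05). The standardized difference was -0.58 (-2.17 to 1.00) with an adjusted p of 0.717, and rank products gave an FDR of 0.0649 for a lower level, which was 0.0468 without HP replicate 3 and 0.0464 without HP replicate 4.

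Cldn19 (1390411_at) ranged between 7.69776921 and 7.69777232 on the HP arrays and between 7.6977686 and 7.69777095 on the control arrays, with a standardized difference of 0.65 (-1.02 to 2.33) and an adjusted p of 0.696. Its direction turned with median centring (-0.90) and quantile normalization (-0.67). Of 8 thick ascending limb markers, 1 was lower by limma (Casr, the calcium-sensing receptor, -3.94, adjusted p 0.0289) and 0 were higher (0 higher and 3 lower at an unadjusted p under 0.05). Their summed level ran from 83.09432 to 83.0944 on the HP arrays and from 83.09443 to 83.09456 on the control arrays, without overlap, and 3 of the 8 had a difference above 0. Their part in the Cldn16 and Cldn19 values was not tested.

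Cldn2 (1375933_at) differed by -4.25e-08 (SE 2.28e-07) between the diets, a standardized difference of -0.13 (-2.66 to 2.40) with an adjusted p of 0.972. The interval reaches past 2 SDs in either direction, so a difference of that size was not detectable with these arrays. Proximal tubule markers had a median standardized difference of -1.66 over 15 genes, each by its probe set of highest mean. Of these 0 were called by limma or by rank products in either direction (0 higher and 6 lower at an unadjusted p under 0.05). The study itself listed Slc34a1, which is among these genes, as lower by rank products and reported the same by in situ hybridization. Their summed level ran from 178.53604 to 178.5362 on the HP arrays and from 178.53618 to 178.53627 on the control arrays, and overlapped.

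Ocln and Tjp1 occur in tight junctions along the whole nephron. The brighter Ocln probe set (1378753_at) read 8.999201, 8.999198, 8.999195 and 8.999198 on the HP arrays, against 8.999199, 8.999194, 8.999192 and 8.999193 on the control arrays, with overlap. Its standardized difference was 1.27 (-0.33 to 2.87) with an adjusted p of 0.374, and it turned to -0.77 with median centring and to -2.12 with quantile normalization. The other (1398281_at) had a standardized difference of -0.01 (-2.40 to 2.37) and an adjusted p of 0.997. The brighter Tjp1 probe set (1372473_at) read 9.992270, 9.992271, 9.992260 and 9.992258 on the HP arrays, against 9.992258, 9.992245, 9.992242 and 9.992257 on the control arrays, so that the lowest HP array lay just below the highest control array. Its standardized difference was 1.91 (0.32 to 3.49), which median centring turned to -0.39, and the p of 0.0252 became 0.188 after adjustment by limma. The other Tjp1 probe set (1395337_at) went the opposite way, at -0.72 (-2.31 to 0.88) with an adjusted p of 0.642.

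**Figure D3:**
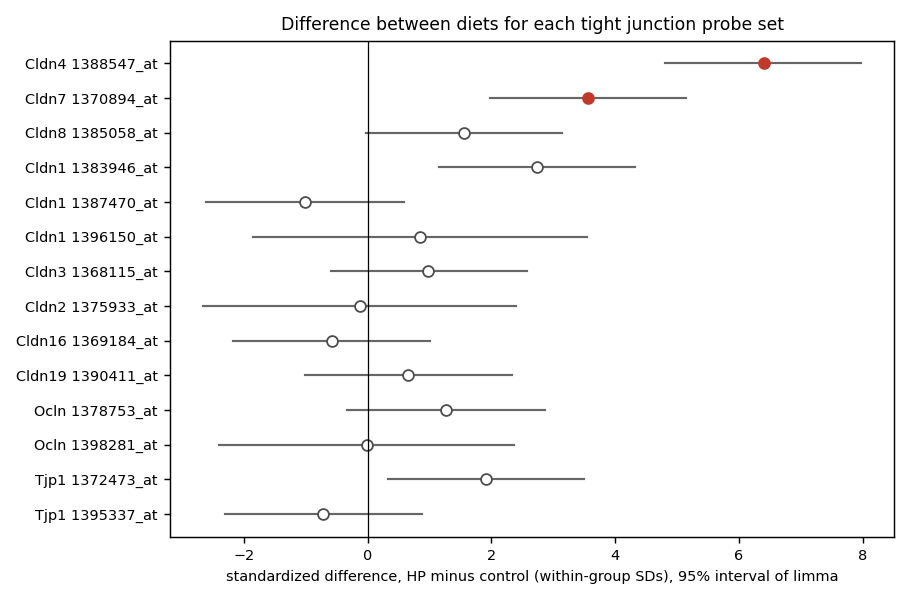
Standardized difference (HP minus control, in SDs within groups) of each of the 14 probe sets with the 95% interval of limma (n = 4 each), filled where the adjusted p was under 0.05. Cldn4 at 6.40 and Cldn7 at 3.56 are filled, the intervals of Cldn1 1383946_at and Tjp1 1372473_at also lie above 0 before adjustment, and the other 10 cross 0.

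With 1 probe set per gene, the one of highest mean, 2 of the 10 genes were higher by limma and 0 lower, where 4.58% of 14217 genes were higher and 1.23% lower. Rank products called 4 higher and 0 lower, where 5.31% of genes were higher and 2.33% lower. The difference was above 0 in 8 of the 10 genes, and their median standardized difference was 1.41 (range -0.58 to 6.40), where the median over all genes was -0.07. The share of all genes above 0 was not counted. Median centring turned Cldn3 (-0.34), Cldn19 (-0.90), Ocln (-0.77) and Tjp1 (-0.39) below 0. Quantile normalization did so for Cldn1 (-2.18), Cldn19 (-0.67) and Ocln (-2.12). The median over all probe sets was then -0.941 and -0.707, so the count above 0 depends on the scaling of the arrays.

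The rest of the tight junction was read from lists of 59 further symbols, some of them older names of the same gene, which gave 46 measured genes. By limma 2 were higher (Cxadr and Lsr) and 1 lower (Prkcz), with a median standardized difference of 0.40. Over all genes 4.58% were higher and 1.23% lower, with a median of -0.07. Of the 9 other claudins measured 0 passed limma or rank products by their brightest probe set (2 higher and 2 lower at an unadjusted p under 0.05), with a median of -0.43 (range -2.65 to 2.38). Cldn10, which makes pores for sodium or chloride in the thick ascending limb and proximal tubule, had the lowest value (-2.65, adjusted p 0.0963). Every HP array was below every control array, as in 5.81% of all probe sets. Cldn14, which blocks the Cldn16 and Cldn19 pore in mouse, had -1.84 (adjusted p 0.203). In the other direction, Cldn6 had 2.38 (adjusted p 0.115) and Cldnd1 had 2.29 (adjusted p 0.144). For Cldn6 every HP array was above every control array, as in 7.09% of all probe sets, and for Cldnd1 the arrays overlapped. A dimmer probe set of Cldn11 (1369609_at) was lower (-4.69, adjusted p 0.0192, or 0.0582 without HP replicate 1 and 0.0646 without control replicate 3), and quantile normalization turned it to 0.71. The brighter one of Cldn11 (1376711_at) had 0.81 with an adjusted p of 0.588.

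Of the 10 other membrane proteins of the tight junction, 2 were higher and 0 lower, with a median of 1.54, where 4.58% of all genes were higher. Lsr, the lipolysis-stimulated lipoprotein receptor that marks corners where 3 cells meet, had a standardized difference of 3.58 (adjusted p 0.0381), and the call was kept in 1 of 8 settings without 1 array, that without HP replicate 3 (otherwise adjusted p up to 0.1, without HP replicate 1). It was also lost with median centring (0.326) and quantile normalization (0.214). Cxadr, the coxsackievirus and adenovirus receptor, had 4.25 (adjusted p 0.0256), which median centring turned to -0.70. Quantile normalization (0.71) lost the call, as did 5 of the 8 settings without 1 array (up to 0.0712, without control replicate 2). Rank products gave Cxadr an FDR of 0.387. They called Lsr (0.00833) and Jam2 (0.0336) higher and 0 of the 10 lower, where 5.31% of all genes were higher and 2.33% lower. The brightest Jam2 probe set had 3.21 (adjusted p 0.0509 by limma), and its others ran from -3.07 to 1.35. Dimmer probe sets of Clmp, a related adhesion molecule (1376198_at, 5.44, adjusted p 0.0123), and of Ildr2, a relative of Lsr (1384036_s_at, 4.14, adjusted p 0.026), were higher too. The brightest probe sets of Clmp (1.67, adjusted p 0.241) and Ildr2 (1.68, adjusted p 0.24) did not pass. The Clmp call was kept in every setting run that holds the probe set. The Ildr2 call was lost in 7 of 8 settings without 1 array (up to 0.0762, without control replicate 3) and turned to -0.20 with median centring and -0.18 with quantile normalization.

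Of 27 scaffold and signalling genes, 0 were higher and 1 was lower by limma (2 and 1 at an unadjusted p under 0.05), and rank products called 0. Prkcz, the atypical protein kinase C zeta that acts with Par3 and Par6 in cell polarity, had a standardized difference of -7.51 on a difference of -3.92e-06 (SE 3.69e-07), with an adjusted p of 0.00933. Rank products, which order differences in deposited units, gave it an FDR of 0.787, and limma lost the call with median centring (-1.07, adjusted p 0.326) and quantile normalization (-1.22, 0.279). A dimmer probe set of Pals1 (1382363_at), a scaffold of the Crumbs polarity complex, was lower at -5.80 (adjusted p 0.01, or 0.14 with median centring) and turned to 0.71 with quantile normalization, whereas its brighter one (1397535_at) had -1.04 and an adjusted p of 0.472. Both the Prkcz and the Pals1 calls were kept without any 1 array.

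Adherens junctions and desmosomes are the other contacts of the same cells. Of 19 genes measured 3 were higher by limma (Dsg2, Dsc2 and Nectin2) and 0 lower (8 and 1 at an unadjusted p under 0.05). Among all genes 4.58% were higher by limma and 1.23% lower. The median standardized difference of the 19 was 1.68 (range -2.60 to 8.65). Dsg2, a desmosomal cadherin, read 7.520500, 7.520545, 7.520467 and 7.520481 on the HP arrays, against 7.520275, 7.520279, 7.520270 and 7.520242 on the control arrays, and the groups did not overlap. Its standardized difference was 8.65 (adjusted p 0.00429, at most 0.0253 without 1 array), and quantile normalization turned it to -0.71. Dsc2, its partner cadherin, had 3.89 (adjusted p 0.0305), and 6 of 8 settings without 1 array lost the call (up to 0.088, without control replicate 3). Nectin2, an adhesion molecule of adherens junctions, had 3.75 (adjusted p 0.0333), lost in 7 of 8 such settings (up to 0.0847, without HP replicate 1), and quantile normalization turned it to -3.52 with an adjusted p of 0.00945. The other probe sets of Nectin2 had adjusted p of 0.367 and 0.845.

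**Figure D4:**
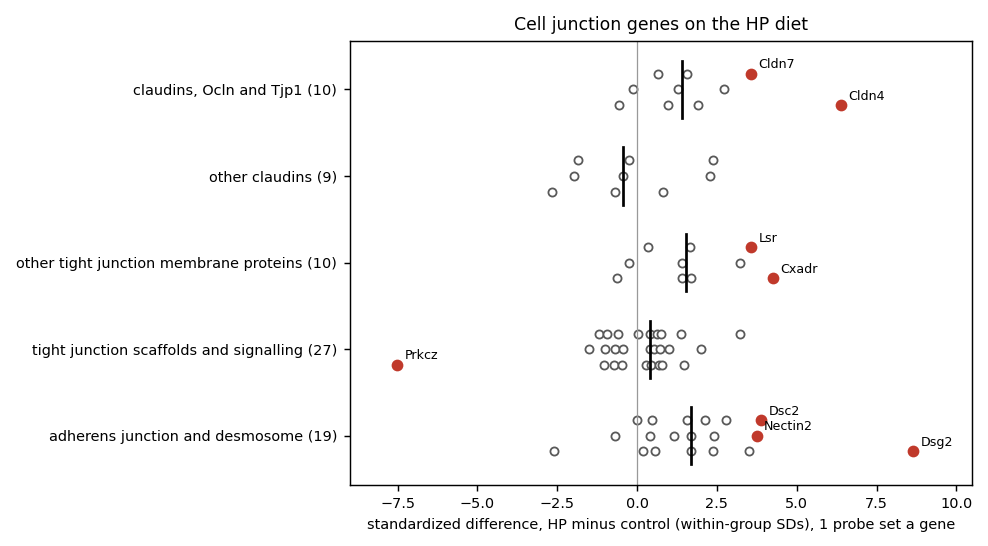
Standardized difference (HP minus control, in SDs within groups, horizontal axis) of the probe set of highest mean of each gene in 5 groups of cell junction genes, with the number of genes in brackets, the median as a black line and filled points where the adjusted p of limma was under 0.05. The filled points are Cldn4 and Cldn7 among the 10 claudin, Ocln and Tjp1 genes, Lsr and Cxadr, Prkcz far to the left at -7.51, and Dsc2, Nectin2 and Dsg2, the last at 8.65.

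Endothelial markers (0 of 11 called by limma, 1 lower by rank products, 1 higher and 1 lower at an unadjusted p under 0.05, summed level 96.96145 to 96.96168 on HP and 96.96161 to 96.96182 on control arrays) and podocyte markers (0 of 6 by limma, by rank products and at an unadjusted p under 0.05, 51.33179 to 51.33187 and 51.33175 to 51.332) overlapped between the diets. Levels of different probe sets cannot be set against each other, so whether these markers fit the labelled tissue was not tested.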

How the data were processed

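Kidney RNA of 8 rats (4 HP, 4 control) was measured on Affymetrix arrays. The authors summarized each probe set over all 8 arrays with DFW and deposited log2 values (the base is not stated). Depth has no meaning for arrays, and their number limits the precision. The 57 Affymetrix controls among 31099 probe sets were left out of limma 3.58.1 (R 4.3.3), run on the other 31042 as HP minus control with eBayes (0.772 prior degrees of freedom). The threshold was an adjusted p of 0.05 (Benjamini-Hochberg), and adjusted p are from this fit or, where a setting is named, from the same model under that setting. Rank products followed the study's methods, with 16 array pairs, 1000 permutations, all probe sets and an FDR threshold of 0.05. The exact two-sided permutation test over 70 arrangements of 4 against 4 arrays cannot go below p = 0.0286, which Cldn4, Cldn7 and Cldn1 (1383946_at) reached.

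A single gene was given to 20826 probe sets, several to 436 and none to 9780. The genes and lists were chosen with earlier results of these data known. All probe sets of the 10 genes are named. Of the other junction lists every gene with a probe set past limma is named, and of the marker lists at most 3 genes with the smallest p. Cldn6, Cldn10, Cldn14, Cldnd1, Jam2, Pax2 and Pax8 were named after their values had been seen. A gene was counted by its probe set of highest mean. Cldn9, Cldn15, Cldn17, Cldn20, Cldn23, Marveld2, Marveld3, Magi2 and Wnk4 were not analysed here. Alternatives were other scalings of the arrays, moderation, array weights, a filter, 1 probe set per gene, the replicate block and leaving out each array. Scripts were tested on simulated data and used Python 3.11.15, pandas 2.3.3, numpy 2.4.6 and matplotlib 3.10.9.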

Additional observations from a re-analysis of the deposited data

Results flagged for a closer look

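The dimmer Ocln probe set (1398281_at) had 1 HP array far from the other 3. HP replicate 1 read 7.8741919, against 7.87419251 to 7.87419257 on the other HP arrays, and its gap to the nearest of them was 0.906 of the range of the group, above Dixon's critical value for 4 samples. Of 28 groups of 4 arrays looked at, 1 had such an array, and chance gives about 1 in 20. Without HP replicate 1 the standardized difference of this probe set was 0.50.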

How the results depend on the processing

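Cldn4 stayed above the control level in every setting run, and limma called it in each except with the replicate block (adjusted p 0.0571). Limma called 2 of the 14 claudin, Ocln and Tjp1 probe sets higher as reported, 1 without moderation, 0 with the replicate block and 1 to 2 without 1 array, and 0 lower in every setting. Same-numbered arrays of the 2 diets have nothing else in common in the labels. HP replicates 1, 2 and 3 correlated best with the control array of the same number (0.121, 0.0887 and 0.0626), and HP replicate 4 did not (0.00148). Control replicates 1 and 2 correlated best with the HP array of the same number, and 3 and 4 did not. Whether the numbers stand for a pairing cannot be told from the labels. The block cut the calls over all probe sets to 254 higher and 115 lower, against 915 and 350. Of the other tight junction genes (2 higher), 4 were higher with 1 probe set per gene, 0 with median centring, 1 without moderation, 0 with quantile normalization and 0 to 1 without 1 array. Of these genes (1 lower), 0 were lower with median centring, 8 with quantile normalization and 0 with the replicate block. Of the adherens junction and desmosome genes (3 higher, 0 lower), 1 was higher without moderation, 1 with the replicate block and 1 to 3 without 1 array, and 2 were lower with quantile normalization. Rank products (4 higher) gave 2 with probe sets divided by their SD within groups, 2 with quantile normalization and 2 to 4 without 1 array. The lower count was 0 to 1 (Cldn16) without 1 array.

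Array medians ran from 7.056091 to 7.056157, a range wider than the typical difference between diets. They were near 7.05615 on HP arrays 2, 3 and 4 and control array 3, and near 7.05609 on the others. The median deviation of an array from the probe set means was far smaller, from -2.22e-07 (HP replicate 1) to 1.49e-07 (control replicate 3). Median centring moves every probe set of an array by the same amount, and that amount follows the array medians. The median standardized difference over all probe sets was -0.707 with quantile normalization, which called 316 higher and 7714 lower, and -0.941 with median centring, which called 440 and 155. Standardized differences changed sign with quantile normalization for Cldn1 1383946_at (-2.18), Cldn1 1396150_at (-0.71), Cldn19 (-0.67), Ocln 1378753_at (-2.12), Cldn11 (0.71), Ildr2 (-0.18), Pals1 (0.71), Nectin2 (-3.52) and Dsg2 (-0.71). With median centring they did so for Cldn1 1396150_at (-0.92), Cldn3 (-0.34), Cldn19 (-0.90), Ocln 1378753_at (-0.77), Tjp1 1372473_at (-0.39), Cxadr (-0.70) and Ildr2 (-0.20). With a shift by the median deviation Cldn2 (0.29) and Ocln 1398281_at (0.41) turned. Without 1 array Cldn2 ran from -1.22 to 0.29, with 0.01 without HP replicate 4, 0.07 without control replicate 3 and 0.29 without control replicate 4. Ocln 1398281_at ran from -0.42 to 0.63, with 0.50 without HP replicate 1 and 0.63 without control replicate 1. The causes were not tested.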
